A study of Mus musculus with 3 samples.

Results

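The genes described here encode the respiratory chain and ATP synthase of the mitochondrion, taken by symbol from the 27998 genes listed: the mitochondrially encoded protein genes (mt- symbols for Nd, Co, Cytb and Atp) and the nuclear families Nduf, Sdha to Sdhd, Uqcr, Cox4 to Cox8 and Atp5. The symbols of 105 genes matched. The 100 with at least 20 UMIs (unique molecular identifiers, each counting 1 transcript molecule) over the 3 libraries were taken as members, 13 of them mitochondrially encoded and 87 nuclear. The 5 left out were Cox4i2 and Ndufa4l2, with 5 and 4 UMIs, and Cox7b2, Cox8b and Cox8c, with 0. Of the nuclear members 77 are subunits of a complex (36 of complex I, 4 of complex II, 8 of complex III, 14 of complex IV and 15 of complex V), and 10 are assembly factors or other associated proteins.

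The cells were CD11c+ phagocytes sorted live from Peyer's patches, the lymphoid follicles of the small intestine, and were to hold cDC1 and cDC2, the 2 kinds of conventional dendritic cell, with lysozyme-expressing dendritic cells (LysoDC) and macrophages. Each of the 3 droplet 3' libraries pooled 12 female C57BL/6Rj mice. Control mice had no treatment, with no injection stated, and gave 88 patches; CpG mice had 125 µg of CpG, a DNA ligand of TLR9, and gave 85; R848 mice had 10 µg of R848, a small-molecule ligand of TLR7, and gave 90. Both agents were injected intraperitoneally 9 hours before collection, and no mouse age is given in the labels. With 1 library per group, treatment and library cannot be told apart, no difference was tested, and every interval below is a 95% interval that covers counting error alone. The plain words higher and lower refer to these libraries.

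Each mitochondrion carries a small circular genome that makes the core membrane subunits of complexes I, III, IV and V, while complex II and all remaining subunits come from the nucleus. The mitochondrial genes of the heavy strand are copied as a long common precursor. The precursor is cut, mostly at tRNA genes, into messages that mostly hold a single gene. The abundance of each message thus also depends on how long it lasts. Complex I (NADH dehydrogenase), complex II (succinate dehydrogenase), complex III (cytochrome bc1) and complex IV (cytochrome c oxidase) pass electrons to oxygen, and complex V (ATP synthase) uses the proton gradient. In phagocytes, stimulation through Toll-like receptors is known to shift energy metabolism away from respiration and to change complex I assembly and succinate handling.

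A 3' library reads the poly(A) ends of messages, so the ends of 6 mitochondrial messages are shown: mt-Nd3 and mt-Cytb, with the lowest median ratios to Control, mt-Co1 and mt-Co2, with the highest, and mt-Nd4 and mt-Co3, whose ends, like that of mt-Cytb, lack a full stop codon. The sequences are the last 30 bases of the GENCODE M21 transcripts (GRCm38, plus strand of chrM), with the last codon in capitals, or the single base left where the stop codon is incomplete.
mt-Nd3, chrM:9459-9806: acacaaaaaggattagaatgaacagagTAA
mt-Cytb, chrM:14145-15288: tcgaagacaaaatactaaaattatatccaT
mt-Nd4, chrM:10167-11544: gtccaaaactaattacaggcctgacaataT
mt-Co3, chrM:8607-9390: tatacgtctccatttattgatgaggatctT
mt-Co1, chrM:5328-6872: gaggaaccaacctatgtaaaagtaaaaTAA
mt-Co2, chrM:7013-7696: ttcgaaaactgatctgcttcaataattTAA
The annotated messages of mt-Cytb, mt-Nd4 and mt-Co3 stop 1 base past a full codon, 3 of the 13, and the poly(A) tail is known to complete such stop codons. Annotated messages overlap on the same strand for mt-Atp8 with mt-Atp6 and for mt-Nd4l with mt-Nd4. The UMIs of these pairs cannot be fully assigned, and a different ratio within a pair is not read as different message abundance. mt-Nd5 and mt-Nd6 overlap on opposite strands, at chrM:13552-13565.

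Some of these messages have near-identical copies in the nuclear genome. Of the 50-base windows of mt-Nd3, 98.0% also occur in annotated nuclear transcripts, and the share was 100% for mt-Co2, 99.5% for mt-Atp6, 99.9% for mt-Co3 and 98.8% for mt-Nd4l. It was 51.1% for mt-Co1, 62.2% for mt-Nd4, 8.19% for mt-Nd2 and 7.61% for mt-Nd5, and 0% for mt-Nd1, mt-Cytb, mt-Nd6 and mt-Atp8. In the last 300 bases, nearest the poly(A) tail, the share was 100% for mt-Co1 and mt-Co2, 98.8% for mt-Nd3 and 0% for mt-Nd4. How the authors' counting treated reads that match both copies was not found in the protocols used here, so levels are uncertain between genes, and comparisons are made between libraries for each gene. Of the nuclear genes that share the most windows with each message, Gm4076, with a stretch of mt-Nd5, was in the deposited gene list, and those of the other 8 copied messages were not.

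Cells were sorted into types by marker genes, as shares of a cell's UMIs, with no member of the respiratory chain used. C1q-high cells had at least 3000 CPM (UMIs per 1000000 UMIs of the cell) of the complement genes C1qa, C1qb and C1qc and hold both LysoDC and macrophages; they were split by at least 1 UMI of Cd4, which macrophages of this tissue carry. Mature dendritic cells (mature DC) had at least 1000 CPM of Ccr7 and Fscn1, resting cDC1 at least 1000 CPM of 5 markers led by Xcr1, and resting cDC2 at least 300 CPM of 8 markers led by Sirpa and none of the other marks. For Control, CpG and R848 in this order, resting cDC2 numbered 1714, 401 and 379 cells, mature DC 411, 2978 and 2280, C1q-high Cd4- cells 1602, 894 and 1290, and C1q-high Cd4+ cells 577, 399 and 627. Resting cDC1 numbered 424 in Control but 22 and 7 in the treated libraries, too few to compare.

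Of the markers that set no gate, Lyz1 and Flt3 followed the gates and Itgam did not. Itgam, listed for resting cDC2, stood at 13.1, 8.83 and 8.41 CPM there in Control, CpG and R848. In C1q-high Cd4- cells it was higher, at 65.5, 91.7 and 32.8 CPM. Sirpa, a gate marker of resting cDC2, stood at 114, 113 and 108 CPM there. It was higher in C1q-high cells too, at 298, 339 and 341 CPM in Cd4- and 424, 465 and 455 CPM in Cd4+ cells. Lyz1, lysozyme, stood at 17436, 15528 and 11976 CPM in C1q-high Cd4- cells and at 587, 286 and 245 CPM in resting cDC2. Flt3, a receptor of dendritic cells, stood at 145, 127 and 120 CPM in resting cDC2 and at 6.37, 2.91 and 2.58 CPM in C1q-high Cd4- cells. A UMI of Cd4 was found in 26.5%, 30.9% and 32.7% of C1q-high cells against 0.526% to 1.98% of resting cDC2 and mature DC, whose median depths, given below, were lower. The 5 T or NK cell markers summed to between 0.267 and 3.497 CPM over these 4 types and 3 libraries, with up to 4 of the 5 at 0. The 6 B or plasma cell markers summed to between 17.7 and 212 CPM and the 4 neutrophil markers to between 1.98 and 61.4 CPM. Cells high in the T or NK, B or plasma or neutrophil markers had been left out, so these low sums follow in part from that cut. The 5 epithelial markers summed to 343, 304 and 284 CPM in resting cDC2 and to at most 78.2 CPM elsewhere. The 7 markers of plasmacytoid dendritic cells summed to more with treatment, at 1716, 3489 and 3606 CPM in C1q-high Cd4+ cells. Of the 7, 3 reached 20 CPM there in each library and 1 was at 0. Siglech, Ccr9, Ly6d and Klk1 of this list also served to leave out cells, and the part of the list in the results was not tested. Mature DC differed between libraries in their own marks: the 10 mature markers summed to 10071, 17897 and 15160 CPM. Some other sums were lower in the treated mature DC. The 12 C1q and lysozyme phagocyte markers summed to 8249, 3148 and 4427 CPM and the 13 resting cDC2 markers to 585, 160 and 189 CPM. The 7 markers of all sorted phagocytes also summed to less there, at 58359, 20063 and 31155 CPM. Of these 7, H2-Ab1 had 11543, 2336 and 4043 CPM and Itgax 77.3, 19.5 and 17.6 CPM. Flt3 had 131, 91.1 and 132 CPM and Zbtb46 28.7, 25.7 and 29.9 CPM, not lower with R848. The sum of the 11 resting cDC1 markers was not lower, at 801, 813 and 960 CPM. The 5 stromal or endothelial markers summed to 33.5, 112 and 98.1 CPM in C1q-high Cd4- cells. The part of these markers in the results was not tested. Libraries shared between 33 and 42 cell barcodes per pair.

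Mitochondrially encoded transcripts took a smaller share of UMIs in both treated libraries, in every one of the 4 cell types compared, while the nuclear share differed much less. In resting cDC2 the 13 mitochondrial members gave 2.28% of UMIs for Control, 1.72% for CpG and 1.59% for R848 (interval 1.571 to 1.599). In mature DC the shares were 2.28%, 1.61% and 1.52%. The Control value was thus nearly the same in resting cDC2 and mature DC, and so were the treated values. In C1q-high Cd4- cells the mitochondrial share was 3.09% in Control, 2.36% with CpG and 1.95% with R848, and in C1q-high Cd4+ cells 3.61%, 2.63% and 2.17%. In all 4 types the order was Control, CpG, R848, and the C1q-high Cd4+ cells had the highest share in each library.

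The 87 nuclear members made up 2.72%, 2.83% and 2.71% of UMIs in resting cDC2 in the same order of libraries. They made up 2.83%, 2.68% and 2.56% in C1q-high Cd4- cells and 2.61%, 2.48% and 2.40% in C1q-high Cd4+ cells. Mature DC were the exception to this narrow range, with 2.32%, 2.28% and 1.90%. Their R848 value lay below those of the other 11 groups of cells compared.

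**Figure D1:**
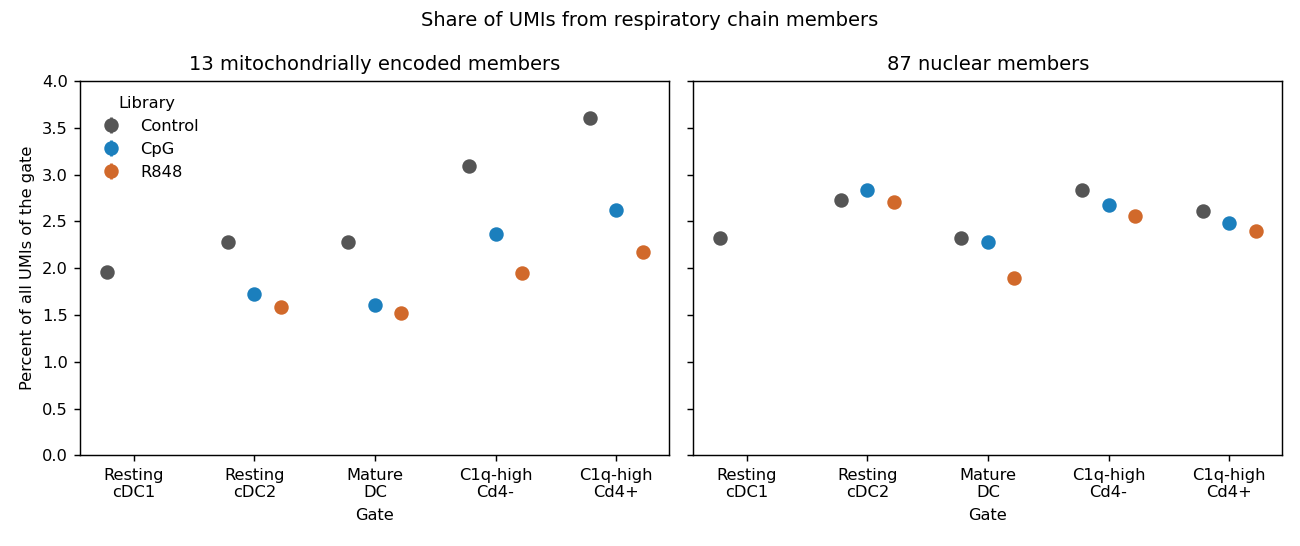
Percent of all UMIs of each cell type (vertical axis, from 0) that came from the 13 mitochondrially encoded members (left) and the 87 nuclear members (right), 1 point per library, with 95% counting intervals smaller than the points; resting cDC1 are shown for Control, where they numbered 424 cells. The treated points lie below Control on the left in all 4 types, while on the right the clear drop is that of mature DC with R848, at 1.90%.

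The ratio of mitochondrial to nuclear member UMIs does not depend on how a library is scaled. In resting cDC2 it was 0.837, 0.607 and 0.586 in Control, CpG and R848, a log2 difference from Control of -0.46 (interval -0.48 to -0.45) with CpG and -0.51 (-0.53 to -0.50) with R848. In mature DC the ratio was 0.982, 0.708 and 0.802, with log2 differences of -0.47 (-0.49 to -0.45) and -0.29 (-0.31 to -0.27). The smaller R848 value in mature DC goes with the lower nuclear share there, since the mitochondrial share was the lowest of the 3 libraries. In C1q-high Cd4- cells the ratio was 1.09, 0.882 and 0.763, with log2 differences of -0.31 (-0.32 to -0.30) and -0.52 (-0.53 to -0.51). In C1q-high Cd4+ cells it was 1.38, 1.06 and 0.907, with log2 differences of -0.39 (-0.40 to -0.37) and -0.61 (-0.62 to -0.59).

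The 2 treated libraries were also set against each other, without Control. R848 cells had a lower ratio than CpG cells by a log2 difference of -0.21 (-0.22 to -0.20) in C1q-high Cd4- cells, -0.22 (-0.24 to -0.21) in C1q-high Cd4+ cells and -0.05 (-0.07 to -0.03) in resting cDC2. In mature DC the difference had the opposite sign, 0.18 (0.17 to 0.19).

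The direction was the same in cells outside these types. The B, T, plasmacytoid and neutrophil-marked cells, which numbered 76, 69 and 106, had ratios of 1.44, 1.10 and 0.956. The mix of these cells differed between libraries, and its part was not tested. B or plasma cell markers summed to 10841, 23622 and 15593 CPM, T or NK cell markers to 175, 474 and 283 CPM and neutrophil markers to 123, 352 and 588 CPM. Cells that passed no gate had ratios of 0.845, 0.633 and 0.661. Since all cells of a library were prepared together, a difference by treatment and one by library preparation cannot be told apart.

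Median depth was higher and the ribosomal protein share lower in both treated libraries, in every type compared. In both, CpG lay furthest from Control, whereas the mitochondrial share was lowest with R848. Median UMIs per cell were 6298, 9069 and 7942 in resting cDC2, 10339, 13693 and 12590 in C1q-high Cd4- cells and 9826, 12532 and 12247 in C1q-high Cd4+ cells, but 5204, 5790 and 5475.5 in mature DC. Ribosomal protein genes made up 21.2%, 16.5% and 16.98% of UMIs in resting cDC2, 18.5%, 14.7% and 14.7% in mature DC, 12.6%, 10.1% and 10.2% in C1q-high Cd4- cells and 10.7%, 8.73% and 9.37% in C1q-high Cd4+ cells. The part of the ribosomal share in the result was not tested.

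Within a library the ratio was lower in deeper cells of the C1q-high types and resting cDC2. In Control C1q-high Cd4- cells it was 1.47 under 5000 UMIs, 1.33 from 5000 to 10000 UMIs and 0.997 above. In cells of 5000 to 10000 UMIs the differences were smaller than over all depths and kept their sign. There the log2 difference of the ratio was -0.13 with CpG in C1q-high Cd4- cells, less than the value over all depths by more than 1.5 times, and -0.34 with R848 in C1q-high Cd4+ cells. In the other 6 comparisons the values ranged from -0.47 in resting cDC2 with R848 to -0.21 in mature DC with R848. In C1q-high Cd4- cells under 5000 UMIs, which numbered 201, 94 and 96, the order was turned round, with ratios of 1.47, 1.62 and 1.91. In mature DC under 5000 UMIs, which numbered 191, 1126 and 958, the ratios of 1.10, 0.667 and 0.772 lay further apart than over all depths. Without mt-Co1 and Cox8a, the members with the most UMIs of each genome over the 3 libraries together, the R848 value in mature DC was -0.46 in place of -0.29.

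**Figure D2:**
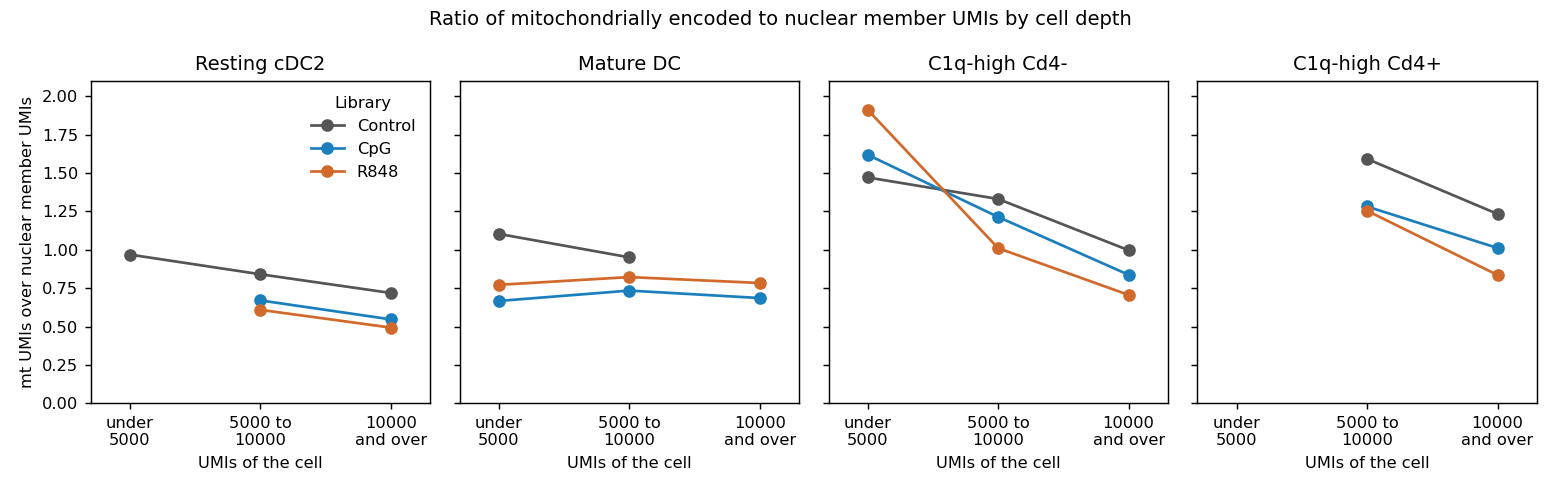
Ratio of mitochondrially encoded to nuclear member UMIs (vertical axis, linear, from 0) in cells grouped by their total UMIs (horizontal axis), 1 line per library and 1 panel per cell type, for groups of at least 50 cells. Where all 3 libraries have a point, Control lies above both treated libraries except in C1q-high Cd4- cells under 5000 UMIs, where it is lowest at 1.47.

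The share also varied between cells of 1 type. In Control resting cDC2 the median cell had 2.26% of its UMIs from mitochondrial members, with 5% of cells at or below 1.25% and 5% at or above 3.65%. The medians with CpG and R848 were 1.74% and 1.53%, inside that range. Cells with under 0.5% were most frequent among mature DC of the treated libraries: 2.43% of mature DC in Control, 7.79% with CpG and 8.60% with R848. In C1q-high Cd4+ cells there were 0%, 0.251% and 0.159% of such cells.

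The 13 mitochondrial members did not differ by a common factor. By the log2 ratio with 5 CPM added, mt-Nd3, a small core subunit of complex I, was the lowest of the 13 in all 4 types with both agents. Its level in Control, CpG and R848 was 183, 81.8 and 69.2 CPM in resting cDC2, and 164, 65.6 and 44.8 CPM in mature DC. It was 199, 84.0 and 49.0 CPM in C1q-high Cd4- cells, and 215.5, 72.5 and 45.2 CPM in C1q-high Cd4+ cells. The R848 level was the lowest of the 3 libraries each time. As a fold of Control, mt-Nd3 ranged from 0.448 (0.396 to 0.505) in resting cDC2 with CpG to 0.210 (0.186 to 0.236) in C1q-high Cd4+ cells with R848. In resting cDC2 with CpG the fold of mt-Nd6, without added CPM, was lower still at 0.378 (0.195 to 0.674), from 13 UMIs. The CpG and R848 comparisons share the Control library, so they are not independent of each other.

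mt-Co1, the catalytic core subunit of complex IV, had the median ratio nearest to Control and was among the 2 messages with the highest ratio in 7 of 8 comparisons. Its level was 3781, 3093 and 3479 CPM in resting cDC2 and 4217, 3693 and 4187 CPM in mature DC. It was 7073, 6465 and 6583 CPM in C1q-high Cd4- cells and 8997, 7790 and 8049 CPM in C1q-high Cd4+ cells. For this gene CpG, and not R848, was the lowest library in each type. Its folds of Control ran from 0.818 in resting cDC2 with CpG to 0.993 (0.972 to 1.01) in mature DC with R848. mt-Co1 took 16.6%, 18.0% and 21.9% of mitochondrial UMIs in resting cDC2, and 24.9%, 29.7% and 37.1% in C1q-high Cd4+ cells, in Control, CpG and R848.

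By median ratio the remaining messages lay between them, but the order was not the same in every comparison. mt-Co2, mt-Nd4l and mt-Nd6 each had the highest ratio in 1 of 8 comparisons. The log2 ratio of mt-Nd4l ran from -1.04 to -0.11. mt-Cytb, the mitochondrial subunit of complex III, stood at 2365, 1582 and 1265 CPM in resting cDC2, 2187, 1207 and 957 CPM in mature DC, 2440, 1376 and 939 CPM in C1q-high Cd4- cells and 2555, 1346 and 909 CPM in C1q-high Cd4+ cells. It was among the 3 lowest by log2 ratio in 7 of 8 comparisons. The complex I subunits mt-Nd1, mt-Nd2 and mt-Nd4 had median log2 ratios over the 8 comparisons of -0.83, -0.87 and -0.83, against -1.42 for mt-Nd3, -0.91 for mt-Cytb and -0.15 for mt-Co1. mt-Co2 and mt-Nd5, core subunits of complexes IV and I, had medians of -0.31 and -0.32, and mt-Co3, mt-Atp6 and mt-Nd4l of -0.63, -0.45 and -0.55. mt-Atp8 and mt-Nd6 were under 30 CPM in every group and their ratios have wide intervals. mt-Nd3 and mt-Co2 both have nuclear copies of almost their whole length, and the part of such copies in the order of the ratios was not tested.

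**Figure D3:**
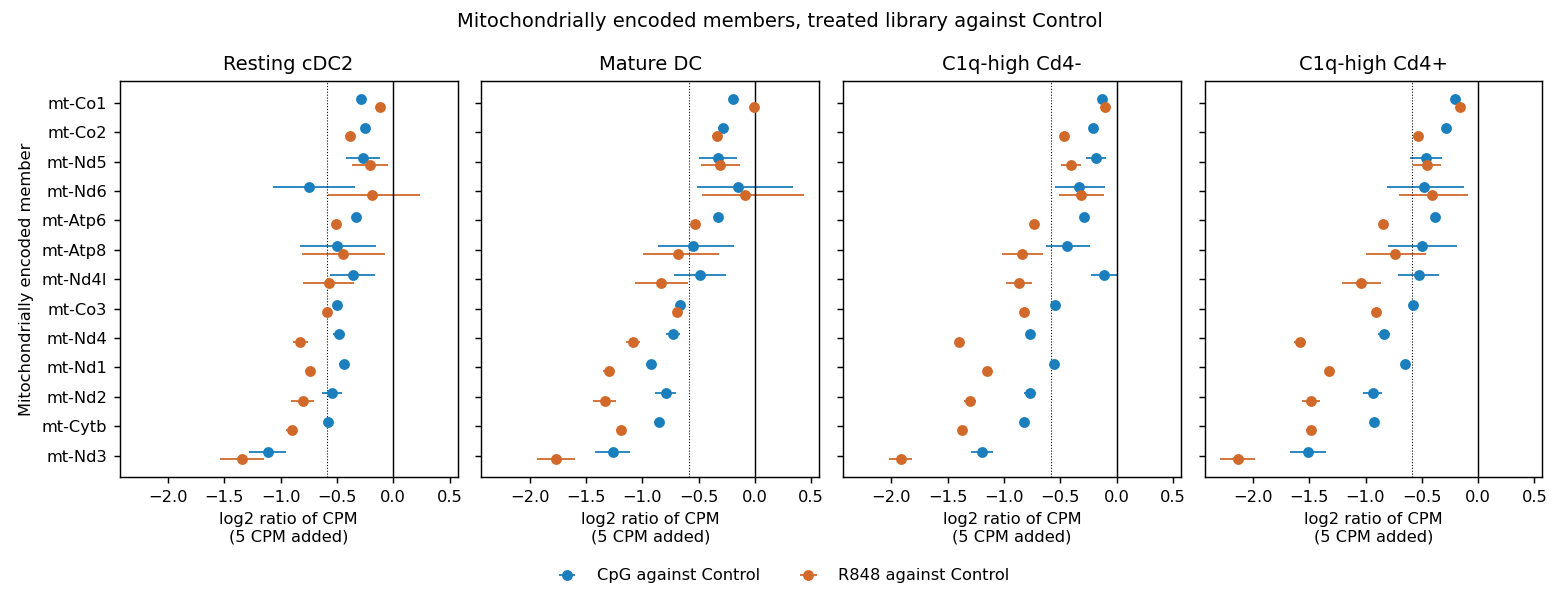
Log2 ratio of CPM to Control, with 5 CPM added to both (horizontal axis), of the 13 mitochondrially encoded members (rows, ordered by their median), with 95% counting intervals; the dotted line marks 1.5-fold lower. All points lie below 0, from mt-Co1 near 0 to mt-Nd3 at -1.11 to -2.14.

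A 1.5-fold difference, with 5 CPM added to both levels and a mean of at least 20 CPM over the 3 libraries, was used to count members, and 11 of the 13 mitochondrial members reached that mean. In resting cDC2, 1 of 11 was 1.5-fold lower with CpG and 6 of 11 with R848, where 2.79% and 2.21% of all genes measured were that much lower. In mature DC 6 and 7 of 11 were lower, with a background of 11.4% and 14.6%. In C1q-high Cd4- cells 4 and 8 of 11 were lower, with 2.78% and 4.59% of all genes, and in C1q-high Cd4+ cells 5 and 8 of 11, with 3.34% and 5.95%. None of the 11 was 1.5-fold higher in any of the 8 comparisons. With cells of 5000 to 10000 UMIs mt-Nd3 was again the lowest of the 11 in all 8, at log2 ratios of -1.98 to -1.08, while mt-Co1 ran from -0.22 to 0.07 and was above 0 in 4 of the 8. In the cells outside the 4 types mt-Nd3 was also lowest, at -1.999 to -0.79.

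Summed by complex, the mitochondrial subunits of complexes I and III differed most and those of complex IV least with R848. In C1q-high Cd4+ cells the fold of Control with R848 was 0.383 for complex I (2628 against 6865 CPM) and 0.356 for complex III, against 0.722 for complex IV and 0.557 for complex V. The nuclear subunits of the same complexes had folds of 0.935, 0.914, 0.935 and 0.896 there, and complex II, which has no mitochondrial subunit, 1.06. In resting cDC2 with R848 the mitochondrial folds were 0.585, 0.535, 0.771 and 0.702 for complexes I, III, IV and V, and the nuclear folds 1.04, 0.947, 0.996 and 0.974. Within each of the 4 complexes that both genomes build, the mitochondrial part was thus the lower one.

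Nuclear members differed little from Control outside mature DC. In resting cDC2 1 of 80 measured members was 1.5-fold lower and 0 higher with CpG, and 0 were either with R848; 5.89% of all genes were that much higher with each agent. In C1q-high Cd4- cells 1 of 78 was lower and 0 higher with each agent, where 6.14% of all genes were higher with CpG and 8.9% with R848. In C1q-high Cd4+ cells the counts were again 1 of 77 lower and 0 higher, with 8.21% and 12.9% of all genes higher. The median log2 ratio of the nuclear members was 0.12 and 0.02 in resting cDC2, where that of all genes was 0.15 with each agent. It was -0.05 and -0.10 in C1q-high Cd4- cells and -0.05 and -0.09 in C1q-high Cd4+ cells, beside 0.03, 0.08, 0.06 and 0.12 for all genes. Scaled by the median of ratios over well-expressed genes, which brings the all-gene median in resting cDC2 to 0.01 and 0.02, the nuclear medians there turned to -0.04 and -0.13.

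The member behind these counts was Cox7a2l, which lies on chr17:83501918-83517330, minus strand, and encodes a factor that joins complexes III and IV into supercomplexes, is not a subunit itself, and exists in a shortened form in C57BL/6 mice. Its level was 834 CPM in Control, 537 with CpG and 623 with R848 in resting cDC2, and 624, 412 and 462 CPM in mature DC. It was 689, 420 and 398 CPM in C1q-high Cd4- cells, and 506, 254 and 253 CPM in C1q-high Cd4+ cells. Control was the highest library in all 4 types. The folds of Control ran from 0.746 (0.710 to 0.784) in resting cDC2 with R848 to 0.499 (0.471 to 0.528) in C1q-high Cd4+ cells with R848, and 6 of the 8 were past 1.5-fold. In cells of 5000 to 10000 UMIs the C1q-high Cd4+ log2 ratios were -1.28 with CpG and -1.10 with R848.

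Cox7a2, the widely expressed subunit from which Cox7a2l takes its name, stood at 466, 542 and 519 CPM in resting cDC2 and 613, 604 and 584 CPM in C1q-high Cd4+ cells. Cox7a1, the muscle form, was under 6 CPM in all 4 types.

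**Figure D4:**
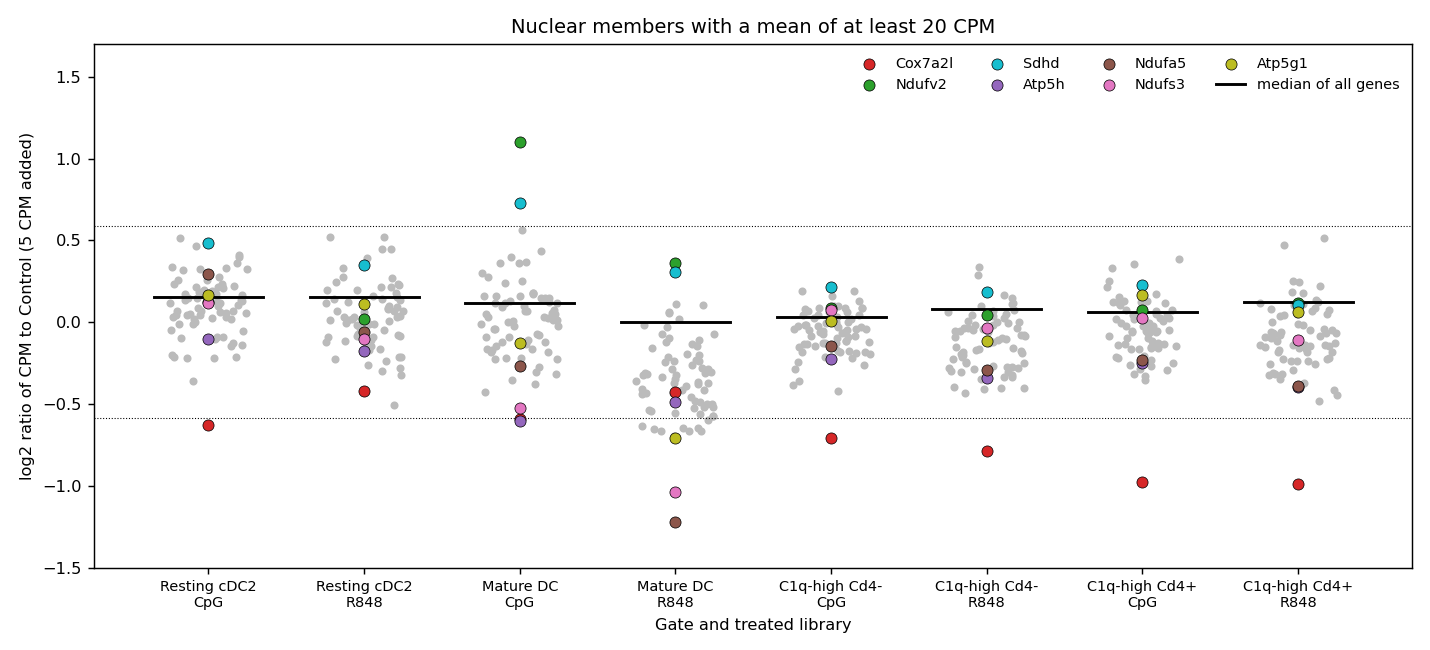
Log2 ratio of CPM to Control, with 5 CPM added (vertical axis), of each nuclear member with a mean of at least 20 CPM (points, spread sideways for legibility), by cell type and treated library, with 7 members coloured; black bars give the median of all genes and dotted lines 1.5-fold. Cox7a2l is the lowest point in 5 of the 6 columns outside mature DC, and in mature DC with R848 the cloud sits below 0, with 69 of 76 members.

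Mature DC were the type in which nuclear members differed. With CpG 2 of 76 were 1.5-fold higher and 2 lower, where 19.1% and 11.4% of all genes were. With R848 12 of 76 were lower and 0 higher, against 14.6% and 15.3% of all genes, so the count itself was near the background. The nuclear members lay to 1 side all the same: 69 of 76 had a log2 ratio below 0, with a median of -0.37, where 2034 of 4100 genes were below 0 and the median was 0.00. Against CpG instead of Control, 13 of 76 were lower with R848 and 0 higher, where 10.7% and 4.9% of all genes were, and the median was -0.37 beside -0.10 for all genes. Since the maturity markers above differed between these libraries, maturity moved along with the treatment, and its part was not tested.

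Of the 12 lower members with R848, 10 were complex I subunits, out of 36 measured, and complexes III and V gave 1 each, Uqcr10 and Atp5g1. The shift below 0 was not confined to complex I. The median log2 ratio was -0.42 for complex I, with 32 of 36 below 0, and -0.42 for complex V, with 15 of 15. It was -0.32 for complex III, -0.20 for complex IV and -0.13 for complex II. Ndufa5, an accessory subunit of complex I, had 65.5, 53.5 and 25.3 CPM in Control, CpG and R848 mature DC, a fold of Control of 0.386 (0.318 to 0.469) with R848. Ndufs3, a core subunit of the same complex, had 72.3, 48.6 and 32.6 CPM, a fold of 0.452 (0.378 to 0.542). In both genes the R848 library was lowest and Control highest. Ndufc2 and Ndufa12, 2 more accessory subunits, had 153, 169 and 92.3 CPM and 102, 104 and 62.6 CPM, with R848 apart from both other libraries. Atp5g1, one of 3 genes for the same c subunit of complex V, had 264.5, 241 and 159.7 CPM, while its relatives Atp5g2 and Atp5g3 had 398, 339 and 275 CPM and 186, 170 and 139 CPM. The 3 genes thus kept 1 order of libraries.

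With CpG the members that were higher in mature DC belonged to complexes I and II. Ndufv2, the core complex I subunit that holds an iron-sulfur cluster of the NADH-binding arm, had 178 CPM in Control, 389 with CpG and 231 with R848, a fold of 2.18 (1.98 to 2.41) with CpG. In resting cDC2 it had 175, 191 and 177 CPM, in C1q-high Cd4- cells 120, 128 and 124 CPM and in C1q-high Cd4+ cells 108, 114 and 117 CPM, so mature DC stood apart. Sdhd, a membrane anchor of complex II, had 72.7, 124 and 91.0 CPM, a fold of 1.702 (1.457 to 1.999) with CpG. Sdha, Sdhb and Sdhc, the other subunits of complex II, had 109, 114 and 90.9 CPM, 108, 128 and 106 CPM, and 37.2, 46.9 and 30.9 CPM. Atp5h, a stalk subunit of complex V, had 540, 354 and 383 CPM and was 1.5-fold lower with CpG, as was Cox7a2l at the levels given above.

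**Figure D5:**
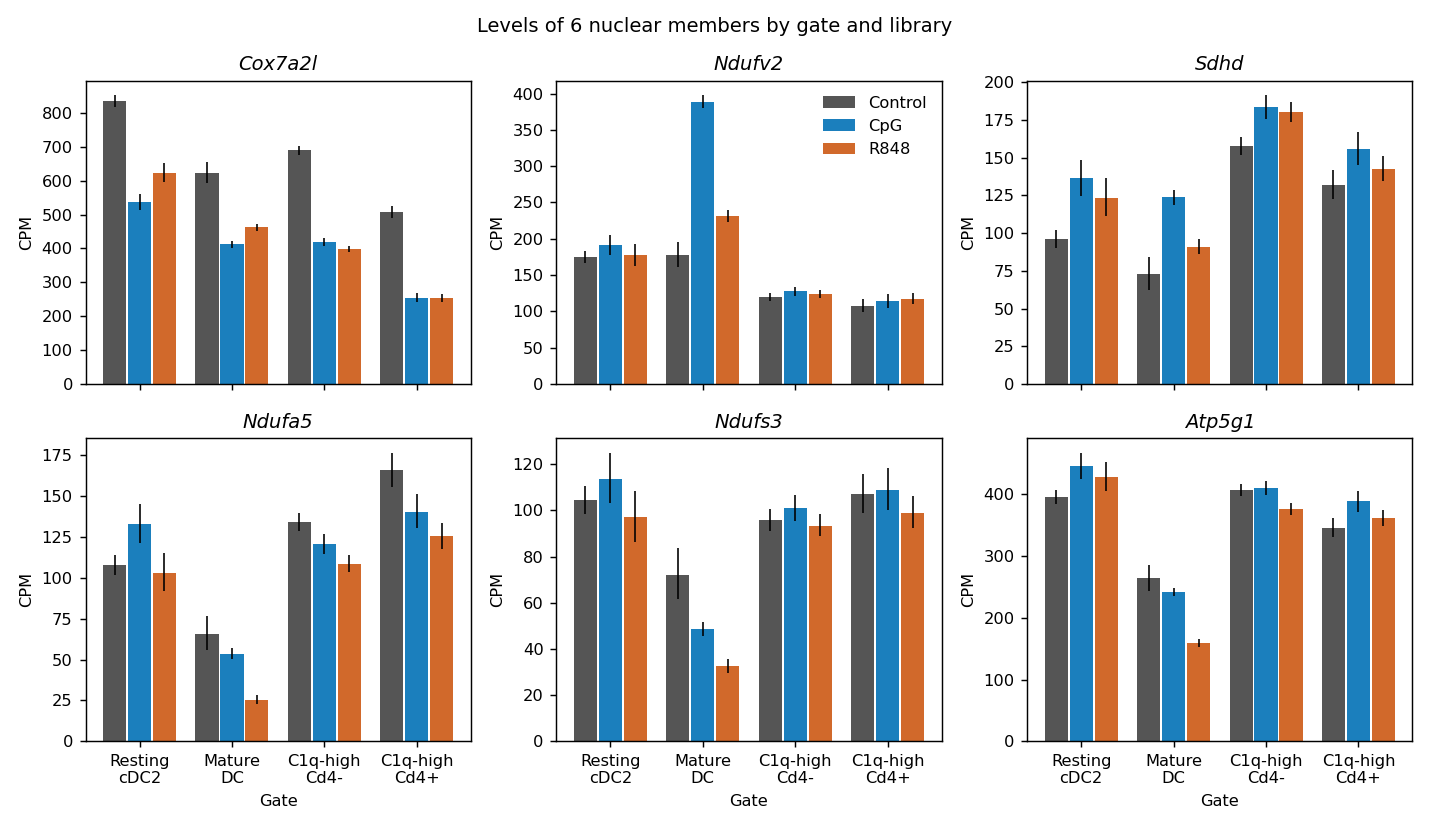
Level in CPM (vertical axes, from 0, with their own range in each panel) of 6 nuclear members by cell type, 1 bar per library with its 95% counting interval. Cox7a2l is highest in Control in all 4 types, while the bars of Ndufv2, Ndufa5, Ndufs3 and Atp5g1 part by 1.5-fold from Control in mature DC alone of the 4 types.

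Members with tissue forms were present almost only in the general form. Cox4i1, the general form of a complex IV subunit, had 1131, 970 and 1037 CPM in resting cDC2, while its hypoxia-linked form Cox4i2 was under 20 UMIs in all. Cox6a1 had 604, 706 and 619 CPM there and Cox6a2, the muscle form, at most 0.8 CPM in any type compared. Cox6b2, known from testis, had 28.3, 19.0 and 12.3 CPM in resting cDC2 and 11.8 CPM or less in the other 3 types. Ndufa4, now counted to complex IV, had 641, 602 and 552 CPM in resting cDC2 and 500.5, 457 and 401 CPM in C1q-high Cd4+ cells. Its paralog AA467197 (Nmes1, or C15orf48 in human), which is induced in inflammation and can take the place of Ndufa4, had 2.41, 19.7 and 25.8 CPM in C1q-high Cd4+ cells and 6.13, 23.6 and 18.3 CPM in C1q-high Cd4- cells. It had 9.90, 33.7 and 14.2 CPM in resting cDC2 but 42.3, 21.6 and 38.3 CPM in mature DC. Its treated levels were the higher ones in all types but mature DC. The most abundant nuclear members over all cells were Cox8a, Cox4i1, Cox5a, Atp5e and Atp5l, at 1384, 1166, 1015, 1151 and 1015 CPM in Control.

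Within a library the cell types differed as well, compared here among cells prepared together. In Control the mitochondrial share of C1q-high Cd4- cells was 1.36 times that of resting cDC2 (1.35 to 1.36), and that of Cd4+ cells 1.17 times that of Cd4- cells (1.16 to 1.17). With CpG these ratios were 1.37 and 1.11, and with R848 1.23 and 1.11. All 12 mitochondrial members with a mean of at least 20 CPM were higher in C1q-high Cd4- cells than in resting cDC2, but 1 of them, mt-Co1, passed 1.5-fold, with a log2 ratio of 0.90 against 0.04 for mt-Cytb; 14.7% of all genes were that much higher and 19.5% lower. Of 79 nuclear members 2 were higher, Cox5a at 1355 against 770 CPM and Sdhd at 158 against 96.0 CPM, and 2 lower, Ndufa6 and Ndufaf7. Between Cd4+ and Cd4- cells 0 of 12 mitochondrial members were past 1.5-fold and 1 of 79 nuclear members, Cox7b, was lower, with 4.37% of all genes higher and 2.68% lower.

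Control mature DC were also set against Control resting cDC2. Of 80 nuclear members measured, 9 were 1.5-fold lower and 0 higher, where 22.6% and 13.6% of all genes were. Of the 80, 73 had a log2 ratio below 0, with a median of -0.29, beside 2667 of 4333 genes and a median of -0.15 for all genes. The mitochondrial share was 0.999 times that of resting cDC2 (0.990 to 1.01). Resting cDC1 in Control had a mitochondrial to nuclear ratio of 0.844, against 0.837 in resting cDC2, and the interval of the log2 difference, up to 0.03, included 0.

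Other mitochondrial genes were followed in 8 lists of 131 genes. Genes of mitochondrial DNA upkeep and transcription were mostly too low: 2 of 15 listed reached the mean of 20 CPM in resting cDC2, and neither was past 1.5-fold with either agent. Genes that process mitochondrial RNA had 2 to 4 of 15 measured per type, and regulators of mitochondrial biogenesis 0 or 1 of 8, so these lists bear little on the mitochondrial messages. The TCA cycle had 15 of 16 measured in resting cDC2, 1 higher with each agent and 0 lower, and in mature DC 12 measured, among them Mdh2, lower with both agents, and Fh1, lower with R848. Mdh2, the malate dehydrogenase of the matrix, had 2321, 3818 and 3852 CPM in resting cDC2 but 886, 376.9 and 341 CPM in mature DC, so the direction differed by type. It had 713, 612 and 338 CPM in C1q-high Cd4- cells. Import proteins and chaperones had 13 measured in mature DC, 5 of them lower with R848 (Tomm20, Tomm40, Timm8b, Timm17a and Hspa9) and 0 higher. With R848 14.6% of all genes in mature DC were lower and 15.3% higher, and with CpG 11.4% and 19.1%. Assembly factors of the complexes had 15 of 36 measured there, 4 higher and 0 lower with CpG and 1 higher and 1 lower with R848. Uncoupling proteins, carriers and oxidant defence genes had all 13 measured there, 1 lower with CpG and 3 with R848. Counts this small are not read as different from those shares of all genes.

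Cycs, cytochrome c, which carries electrons from complex III to complex IV, was higher with both agents outside mature DC: 179, 390 and 365 CPM in C1q-high Cd4+ cells, 260, 460 and 414 CPM in C1q-high Cd4- cells and 293, 511 and 443 CPM in resting cDC2. In mature DC it had 177, 273 and 144 CPM. Hspd1, the chaperonin of the matrix, had 103, 218 and 217 CPM in C1q-high Cd4+ cells. In mature DC Gpd2, which feeds electrons from glycerol phosphate into the chain, had 123, 267 and 204 CPM, Coa5, an assembly factor of complex IV, 23.2, 47.4 and 64.6 CPM, Higd1a, a complex IV partner, 118, 65.2 and 44.7 CPM, and Prdx5, a peroxidase, 344, 156 and 216 CPM. With Mdh2 these were the 7 listed genes past 2-fold in a comparison with Control.

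The starts of the nuclear members were searched for 3 motifs. The letters GCGCANGCG on either strand, the core of the binding motif of Nrf1, a transcription factor of respiratory genes, were present within 250 bases before to 50 after a RefSeq start (GRCm38.p6) in 22 of the 71 nuclear members matched there, 31.0%, against 7.03% of 27025 genes. CCGGAAG, a core of ETS-family motifs, was present in 23.9% against 9.93%, and CCAAT, the letters of the CCAAT box, in 43.7% against 41.1%. Some members, among them Sdhd and Atp5h, held both the Nrf1 and the ETS letters. The stretch around the Nrf1 letters, in capitals, is shown for 3 of the members named above that hold them.
Ndufa5, chr6:24527688-24527736, minus strand: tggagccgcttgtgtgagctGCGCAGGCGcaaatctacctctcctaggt
Sdhd, chr9:50603900-50603948, minus strand: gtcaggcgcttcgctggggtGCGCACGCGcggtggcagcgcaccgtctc
Atp5h, chr11:115420032-115420080, minus strand: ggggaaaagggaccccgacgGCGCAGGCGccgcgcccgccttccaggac
Cox7a2l and Ndufv2 were not among the matches. A match of letters is a description of the sequence and shows no binding. The 27025 genes were not matched to the members in expression or base content, and the part of either in these shares was not tested.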

How the data were processed

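The authors counted with Cell Ranger 2.0.0 on mm10, per the submitters' processing notes, with an annotation release not given in the sources used here. Each deposited matrix holds unnormalized UMI counts of genes by cells. The libraries held 5344, 5049 and 5133 barcodes and 43537067, 43767864 and 46556726 UMIs (Control, CpG, R848).

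Cells with at least 500 genes were gated on summed marker CPM, with no upper limit on the mitochondrial share. Cells of B (3000 CPM), T or NK (1000), plasmacytoid (1500) or neutrophil (3000) markers, and cells in more than 1 gate (36, 108 and 303, possible doublets), were left out. Cut values came from the distributions of the marker shares. UMIs were summed per gate and library, scaled to CPM and compared as log2 ratios with 5 CPM added. Levels carry exact Poisson intervals, folds exact conditional binomial intervals, shares Clopper-Pearson intervals, and differences of the mitochondrial to nuclear ratio a normal approximation from the 4 counts. No test was possible with 1 library per group. The ratio and interval functions were tested on simulated data.

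Named genes were all mitochondrial members, the 5 most abundant nuclear members, up to 5 past 1.5-fold per direction and comparison, the isoforms of 1 subunit, and list genes past 2-fold; comparison values of Sdha, Sdhb, Sdhc and Cox7b and the 3 promoters printed were chosen after values were seen. Members, lists and tests were chosen with earlier results of these data known. Coordinates are from GENCODE M21. Python 3.11.15, numpy 2.4.6, scipy 1.17.1, pandas 2.3.3 and scanpy 1.11.5 (doublet scores) were used. Alternatives covered cell filters, gates, doublets, free RNA, scaling, pseudocount, expression minimum, fold and depth. One listed gene is not reported here.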

Additional observations from a re-analysis of the deposited data

How the results depend on the processing

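The log2 difference of the mitochondrial to nuclear ratio from Control stayed below 0 under all alternatives run, 10 per comparison. In what follows the cell types come in the order resting cDC2, mature DC, C1q-high Cd4- and C1q-high Cd4+ cells, CpG before R848. In cells of 5000 to 10000 UMIs, an alternative chosen after seeing the data, it was -0.3266, -0.4651, -0.373, -0.2095, -0.1329, -0.3973, -0.3126 and -0.3443. Without mt-Co1 and Cox8a it was -0.4814, -0.6002, -0.5543, -0.4614, -0.3973, -0.7438, -0.4835 and -0.872. For the remaining alternatives only values outside the counting interval are given. As a median over cells it was -0.434 in cDC2 with CpG, -0.5345 and -0.3626 in mature DC, -0.3392 and -0.5629 in Cd4- cells, and -0.4132 and -0.6788 in Cd4+ cells. With gate cuts doubled it was -0.4911 and -0.5523 in cDC2 and -0.5226 and -0.3358 in mature DC. Without cycling cells it was -0.4816 and -0.543 in cDC2, -0.5556 in Cd4- and -0.6295 in Cd4+ cells with R848. Without cells over 5% mitochondrial UMIs it was -0.4405 in cDC2 with CpG, -0.5032 in Cd4- cells with R848, and -0.3359 and -0.5584 in Cd4+ cells. Without cells over 10% it was -0.3249 in Cd4- cells with CpG, and without scored doublets -0.3189 and -0.5266 there.

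The count of mitochondrial members lower was 1, 6, 6, 7, 4, 8, 5 and 8. At 2-fold it was 1 in cDC2 with R848, 1 in mature DC with CpG, 1 and 5 in Cd4- cells and 1 in Cd4+ cells with CpG. In cDC2 with CpG it was 2 with CPM of UMIs outside mitochondrial genes, with doubled cuts and with no expression minimum, 3 without cycling cells and 6 with median-of-ratios size factors. The count of nuclear members past 1.5-fold was 1, 0, 4, 12, 1, 1, 1 and 1. At 2-fold it was 0 in cDC2 with CpG and in all 4 C1q-high comparisons, and 1 and 2 in mature DC. Subunits alone gave 0 in cDC2 with CpG and in the 4 C1q-high comparisons, since Cox7a2l is then left out. In cDC2 with R848 it was 1 with 1 CPM added, 5% free RNA removed, CPM outside mitochondrial genes, cells of 5000 to 10000 UMIs, doubled cuts or no minimum. With size factors it was 2 in cDC2 with either agent and 2 in Cd4+ cells with R848, where no minimum also gave 2. With 20 CPM added it was 2 and 7 in mature DC, and with a minimum of 100 CPM 7 with R848. In cells of 5000 to 10000 UMIs it was 4 and 6 in Cd4+ cells. Apart from what an alternative leaves out by construction, the cause was not tested. With 1 library per group no replicate could be left out, and no paired analysis was possible because the groups hold 1 library each. Depth limits mt-Atp8, mt-Nd6 and nuclear members under 20 CPM most.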
